A study of Mus musculus with 12 samples.

Results

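The expression of 9 genes that mark the striosome and matrix compartments of the striatum was compared between wild-type (WT) mouse striatum and striatum labelled as deleted for Foxp1. The striosome markers were Oprm1, Kremen1, Sema5b, Bach2 and Lypd1, and the matrix markers were Calb1, Sv2b, Id4 and Rasgrp2. They were taken by name from the table of expression values, where all 9 were measured among 25428 probe sets. Striata of both hemispheres had been dissected from embryos at embryonic day 18.5 on the C57BL/6J background, and 1 biotin-labelled array per sample measured total RNA extracted with Trizol. The control group held 6 WT arrays, and the labels do not say whether these embryos carried the Cre transgene or floxed alleles. The other group held 6 arrays titled Nestin-Cre (Foxp1-/-), called cKO here. The Nestin promoter is active in neural progenitors throughout the developing nervous system, so the deletion was not restricted to striatal neurons. Each group's samples are titled biological replicates, and litters are not given. The comparison asks whether markers of the compartments differ in level between the genotypes.

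The striatum is built from projection neurons that lie in patches, the striosomes, and in the matrix that surrounds them. Striosome neurons are generated earlier, carry dense mu opioid receptor and include cells that project to dopamine neurons of the midbrain. Matrix neurons are generated later and in the adult contain the calcium buffer calbindin. Whole striata were homogenised here, so the compartments were not separated. In such bulk tissue, fewer cells of a type and less RNA per cell cannot be told apart.

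All values are log2 expression values from RMA, which corrects background, gives the arrays a common distribution and summarises probes into a probe set. Values in the table ran from 5.21 to 13.99 with a median of 5.71, and correlations between arrays ran from 0.992 to 0.998. A change is the mean of the cKO arrays less that of the WT arrays, in log2 units, and its standard error (SE) comes from limma, a linear model fitted across all probe sets. P-values were adjusted by the Benjamini-Hochberg method across the whole table, with a threshold of 0.05. Foxp1 itself averaged 11.14 in WT and 10.23 in cKO with no overlap between the groups, 1.88-fold lower (limma adjusted p = 0.000170). Foxp1 signal thus remained well above the table's median in cKO. The deleted exons and the positions of the probes are not given in the sources used here, so the probe set may lie partly outside the deleted part and the value gives no measure of remaining function. At this threshold 185 probe sets passed, or 0.728% of those tested, with 76 higher and 109 lower in cKO. Without adjustment 10.7% had p below the threshold, and in 1.38% the arrays of the groups did not overlap. All 15 measured markers of striatal projection neurons lay above the median probe set, whereas 2 of 6 markers of cortical glutamatergic neurons, Emx1 and Slc17a7, lay below it.

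Promoter sequences are shown for Oprm1, Bach2 and Id4, because these markers tended to be high and low on the same arrays, as described further on. Each is the 250 bases before a transcript start in a RefSeq table of GRCm38.p6, on the plus strand, and the array's own genome build is not given in the sources used here. Capitals mark a forkhead motif, the kind of sequence that Foxp proteins recognise.
Oprm1, chr10:6788320-6788569: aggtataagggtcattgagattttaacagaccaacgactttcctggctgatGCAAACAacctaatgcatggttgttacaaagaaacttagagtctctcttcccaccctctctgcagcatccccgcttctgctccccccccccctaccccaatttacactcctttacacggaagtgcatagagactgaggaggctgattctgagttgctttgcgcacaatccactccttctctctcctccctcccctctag
Bach2, chr4:32417185-32417434: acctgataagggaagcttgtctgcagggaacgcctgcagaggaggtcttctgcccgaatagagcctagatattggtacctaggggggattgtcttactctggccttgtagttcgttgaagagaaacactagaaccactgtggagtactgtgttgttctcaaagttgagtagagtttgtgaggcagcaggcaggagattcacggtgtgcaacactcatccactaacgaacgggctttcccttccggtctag
Id4, chr13:48260866-48261115: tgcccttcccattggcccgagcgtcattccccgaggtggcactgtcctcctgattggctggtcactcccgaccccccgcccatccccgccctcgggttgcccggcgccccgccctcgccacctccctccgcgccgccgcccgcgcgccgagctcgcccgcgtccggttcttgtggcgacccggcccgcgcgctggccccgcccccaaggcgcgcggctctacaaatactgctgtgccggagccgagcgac
The search covered both strands for 3 forkhead motifs of 7 bases. The first, TGTTTGC, occurred in 4.30% of all 32851 windows of this length in the table. The second, TGTTTAC, occurred in 3.17% of them, and the last, TGTTTAT, in 4.16%. At least 1 of the 3 was present in 11.0% of windows. Of the 9 markers, 7 had an entry, with 15 windows in all, and Kremen1 and Calb1 had none. Among these 7, Oprm1 alone had a match. It was the first motif, read from the other strand as GCAAACA, and began 199 bases before the start shown. The Oprm1 window chr10:6788326-6788575, which overlaps the one shown, held the same match, and the Oprm1 window chr10:6758343-6758592 held none. Base composition differed, with a GC content of 75.6% in the Id4 window and 50.4% in that of Bach2, beside a median of 52.4% over all windows. A match is a description of letters and does not show binding.

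No striosome or matrix marker passed the threshold. At an unadjusted p below it, 2 of 9 differed (22.2%, beside 10.7% of all probe sets), Lypd1 and Id4, both higher in cKO. In none of the 9 were the arrays of the genotypes separate, beside 1.38% of all probe sets. The median change was -0.05 over the 5 striosome markers and 0.10 over the 4 matrix markers, beside -0.0008 over all probe sets. The change was negative for 4 of 5 striosome markers and positive for 4 of 4 matrix markers, where 48.8% of all probe sets had a positive change. The 95% intervals of 7 of the 9 included 0. WT replicate 6 was singled out here because it was the highest or lowest WT array for most markers. Without it the medians were -0.0095 and 0.04, and Rasgrp2 had a negative change. Over all probe sets WT replicate 3 was the array least like its group, with a mean correlation of 0.9945 against 0.9953 for WT replicate 6. Without WT replicate 3 the medians were -0.09 and 0.10.

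**Figure D1:**
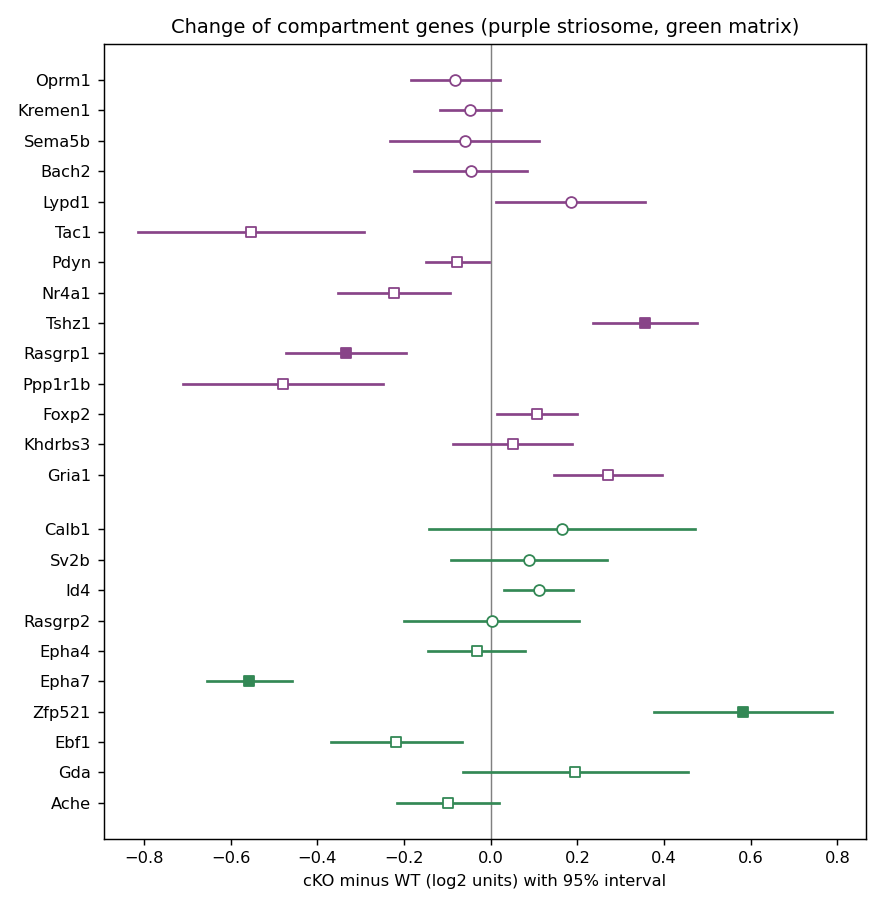
Change of each compartment gene in log2 units (cKO minus WT, 6 arrays per group), with 95% intervals from limma; circles are the 9 markers, squares other compartment genes, and filled symbols passed an adjusted p of 0.05. All 9 circles are open, whereas Tshz1, Rasgrp1, Epha7 and Zfp521 are filled.

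Among the striosome markers, Oprm1 encodes the mu opioid receptor, whose protein outlines striosomes in tissue sections. Oprm1 ran from 7.12 through a median of 7.22 to 7.36 on the WT arrays and from 7.04 through 7.16 to 7.28 on the cKO arrays. The groups overlapped, and WT replicate 6 was the highest of all 12 arrays. The change was -0.08 ± 0.05 (SE, n = 6 per group; 95% interval -0.18 to 0.02; limma adjusted p = 0.586). Of 7 other opioid genes, none passed. Penk, which encodes the enkephalin precursor, differed by 0.38 ± 0.08 (SE; limma adjusted p = 0.0501), its arrays overlapping between groups. The kappa receptor Oprk1 differed by -0.05, the delta receptor Oprd1 by -0.04, and the dynorphin precursor Pdyn by -0.08. Of these 7 genes 6 had a negative change and Penk a positive one, where 48.8% of all probe sets had a positive change. Pomc, Oprd1, Oprk1 and Pnoc averaged 5.55, 5.72, 5.74 and 5.97 in WT, near the median of all values (5.71), so their signs say little.

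Kremen1 is a membrane receptor for Dickkopf proteins, secreted inhibitors of Wnt signalling, and acts with them on the Wnt co-receptors Lrp5 and Lrp6. It ran from 5.86 through 5.92 to 6.03 in WT and from 5.81 through 5.87 to 5.95 in cKO. These values sit close to the table's median of 5.71, where RMA compresses differences. The groups overlapped and the change was -0.05 ± 0.03 (SE; interval -0.12 to 0.02; limma adjusted p = 0.653). None of 7 genes for Kremen2, Dickkopf proteins or Lrp5 and Lrp6 passed, and their changes ran from -0.08 for Dkk3 to 0.06 for Lrp5.

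Sema5b, a transmembrane semaphorin that guides axons, spread more widely in WT than in cKO. It ran from 7.29 through 7.58 to 7.88 in WT and from 7.44 through 7.52 to 7.63 in cKO, so that every cKO array lay inside the WT range. The change was -0.06 ± 0.08 (SE; interval -0.23 to 0.11; limma adjusted p = 0.842). Its relative Sema5a differed by 0.18 ± 0.06 (SE; limma adjusted p = 0.262), and the plexin receptors Plxna1 and Plxna3 by -0.13 and -0.09. None of these 3 passed.

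Bach2, a transcriptional repressor that pairs with small Maf proteins, ran from 7.57 through 7.76 to 7.97 in WT and from 7.65 through 7.73 to 7.84 in cKO. The cKO arrays again lay within the WT range. The change was -0.05 ± 0.06 (SE; interval -0.18 to 0.08; limma adjusted p = 0.836). The related Bach1 differed by 0.19 ± 0.05 (SE; limma adjusted p = 0.0999), and Mafg, Mafk, Maff and Nfe2l2 by -0.04 to 0.04. None of these 5 passed. Maff averaged 5.52 in WT, below the median of all values (5.71), so its change says little.

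Lypd1, which encodes a membrane-anchored Ly6 protein that modulates nicotinic acetylcholine receptors, had the opposite sign to the other striosome markers. It ran from 8.58 through 8.85 to 9.01 in WT and from 8.84 through 9.0002 to 9.12 in cKO. In cKO, 3 arrays lay above the highest WT array, and none lay below the lowest. The change was 0.18 ± 0.08 (SE; interval 0.01 to 0.36; unadjusted p = 0.0385 and adjusted p = 0.418 by limma). Without WT replicate 6, its lowest array, the change was 0.14 with an unadjusted limma p of 0.0850. Of 8 Ly6 and nicotinic receptor genes none passed, with 0.08 for Lypd6b and -0.15 for the receptor subunit Chrna7 at the ends. Lypd6b averaged 5.42 in WT, below the median of all values (5.71), so its change says little.

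**Figure D2:**
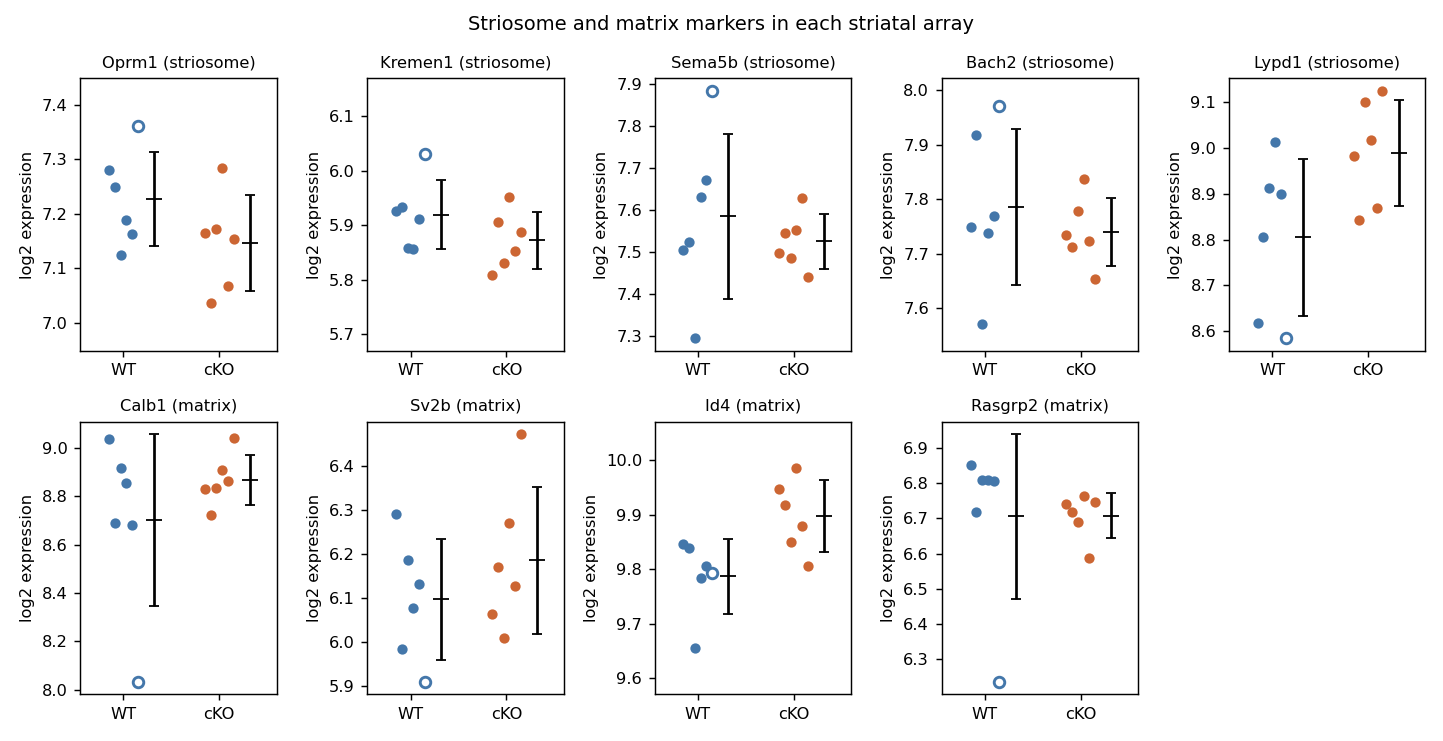
RMA log2 expression of the 9 markers on each of the 12 arrays, by genotype (n = 6 each), with the group mean and its SD as bars; the open circle is WT replicate 6. The genotypes overlap in every panel, and the open circle is the highest WT array for Oprm1, Kremen1, Sema5b and Bach2 and the lowest for Lypd1, Calb1, Sv2b and Rasgrp2.

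Among the matrix markers, Calb1 encodes calbindin, the EF-hand protein that buffers calcium in matrix neurons. Its WT arrays ran from 8.03 through 8.77 to 9.04 and its cKO arrays from 8.72 through 8.85 to 9.04. WT replicate 6 stood at the low end, 0.65 below the next WT array at 8.68. The change of 0.16 ± 0.14 (SE; interval -0.14 to 0.47; limma adjusted p = 0.735) became 0.03 without that array. The buffers Calb2 and Pvalb differed by -0.0078 and -0.0062, and neither passed. They averaged 5.82 and 5.47 in WT, near or below the median of all values (5.71), so these small changes say little about them.

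Sv2b, a membrane glycoprotein of synaptic vesicles, ran from 5.91 through 6.10 to 6.29 in WT and from 6.01 through 6.15 to 6.47 in cKO. Like those of Kremen1, these values sit not far above the table's median of 5.71, where RMA compresses differences. One cKO array, replicate 6, lay above the WT range. The change was 0.09 ± 0.08 (SE; interval -0.09 to 0.27; limma adjusted p = 0.758). Its paralogues Sv2a and Sv2c differed by -0.02 and -0.08, the calcium sensor Syt1 by 0.04, and none passed.

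Id4 came nearest to separating the genotypes. This helix-loop-helix protein lacks a DNA-binding region and holds E proteins inactive, and it is also expressed by neural progenitors. It ran from 9.66 through 9.80 to 9.85 in WT and from 9.81 through 9.90 to 9.99 in cKO. In cKO, 5 of 6 arrays lay above the highest WT array, and replicate 6 lay within the WT range. The change was 0.11 ± 0.04 (SE; interval 0.03 to 0.19), or 1.08-fold, with an unadjusted p of 0.0115 and an adjusted p of 0.271 by limma. None of 6 Id and E protein genes passed. Id2 differed most among them, by 0.55 ± 0.13 (SE; limma adjusted p = 0.0946), beside 0.07 for Id1 and 0.07 for Id3. The progenitor markers leaned the same way, with 11 of 12 positive, a median change of 0.10 and none past the threshold. Their summed level spanned 107.6 to 111.1 over the WT arrays and 109.2 to 111.7 over the cKO arrays. By limma with their mean level as a covariate, the change of Id4 was 0.07 (unadjusted p = 0.0947). That level was itself higher in cKO (9.22 against 9.11 in WT), so this covariate and genotype are not independent. The part of progenitor cells in the change of Id4 was not tested. The unadjusted p of Id4 stayed below the threshold in 23 of 24 alternative analyses and its adjusted p in none.

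Rasgrp2, a calcium- and diacylglycerol-regulated exchange factor for the small GTPase Rap1, had nearly equal means in the genotypes and unequal spreads. It ran from 6.24 through 6.81 to 6.85 in WT and from 6.59 through 6.73 to 6.76 in cKO. All 6 cKO arrays lay below the WT median, while WT replicate 6 lay below every cKO array. The change was 0.0021 ± 0.09 (SE; interval -0.20 to 0.20; limma adjusted p = 0.997). Without WT replicate 6 it was -0.09 (unadjusted p = 0.0191 and adjusted p = 0.391 by limma). Among 6 genes of the RasGRP and Rap1 group, Rasgrp1 fell, as given below with the other striosome genes, and none rose. Of all probe sets 0.728% passed. The GTPases Rap1a and Rap1b differed by 0.08 and 0.0033, and the Rap1 inactivator Rap1gap by -0.27 (limma adjusted p = 0.310).

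The SD was larger in WT than in cKO for 7 of 9 markers, and for 5 of 9 once WT replicate 6 was left out. For Calb1 it was 0.36 in WT, 0.15 in WT without replicate 6 and 0.10 in cKO. For Rasgrp2 the SDs were 0.23, 0.05 and 0.06 in the same order, and for Sema5b 0.20, 0.15 and 0.07. Over all 12 arrays the residual SDs of the matrix markers Calb1, Rasgrp2 and Sv2b lay at percentiles 99.4, 97.0 and 95.4 of all probe sets. The striosome markers Sema5b and Lypd1 both lay at percentile 94.6, and Bach2 and Oprm1 at 86.7 and 76.1. Kremen1 and Id4 lay at percentiles 57.8 and 63.9. All 9 markers were brighter than the median probe set, with mean levels at percentiles 57.4 (Kremen1) to 95.7 (Id4). Their spreads were not compared with those of probe sets of like level. The SDs of Rasgrp2 in WT without replicate 6 and in cKO were near the median residual SD of all probe sets, 0.0469.

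The sets were compared as a balance, the mean deviation of the 5 striosome markers from their WT means less that of the 4 matrix markers, for each array. WT replicates 1 to 6 stood at -0.23, 0.04, -0.18, -0.04, -0.02 and 0.43, and cKO replicates 1 to 6 at -0.10, -0.12, -0.01, -0.10, -0.08 and -0.21. The cKO arrays lay within the WT range, and 5 of 6 were below the WT median. The mean was -0.10 ± 0.06 (SD, n = 6) in cKO against 0 by construction in WT, whose SD was 0.24. Without WT replicate 6 the difference between the genotypes was -0.02, and without WT replicate 3 it was -0.14. Leaving out Lypd1 made the difference -0.15, and -0.05 without both Lypd1 and WT replicate 6. Lypd1 was the only striosome marker with a positive change, so leaving it out could only make the difference more negative. The mean deviation of the striosome set in cKO was -0.01 ± 0.04 (SD) and that of the matrix set 0.09 ± 0.07 (SD).

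**Figure D3:**
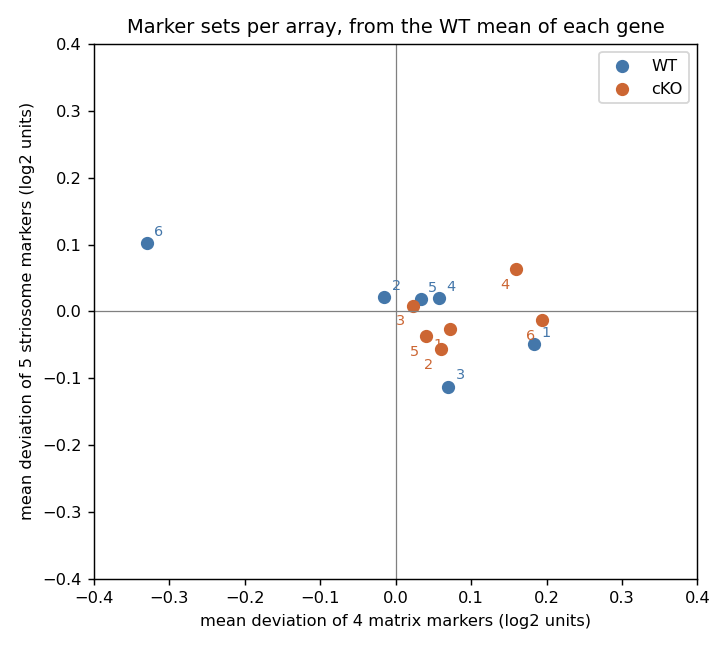
Mean deviation of the 5 striosome markers (vertical axis) against that of the 4 matrix markers (horizontal axis), in log2 units from each gene's WT mean, for the 12 arrays labelled by replicate number. WT replicate 6 lies alone at -0.33 on the matrix axis, and the 6 cKO arrays lie between 0.02 and 0.19.

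WT replicate 6 set the widest contrast between the sets. It was the highest WT array for 4 of 5 striosome markers and the lowest for 3 of 4 matrix markers. WT replicate 1 was the highest WT array for all 4 matrix markers, and WT replicate 3 the lowest for 3 of 5 striosome markers. On WT replicate 6 the 9 other striosome genes had their highest mean in WT (8.27) and the 6 other matrix genes their lowest (9.19). Of these striosome genes, Tshz1, Nr4a1, Ppp1r1b and Khdrbs3 had their highest WT value on it, and Tac1, Rasgrp1 and Foxp2 lay above their WT means. Gria1, at its lowest WT value (10.42), and Pdyn lay below theirs. The low matrix mean went with Gda, at 7.22 on this array against a WT mean of 7.76. Of the other matrix genes, Zfp521 and Ache also lay below their WT means on it. Epha7, at its highest WT value (9.67), Ebf1 and Epha4 lay above theirs. Without this array the changes of Oprm1, Kremen1, Sema5b and Bach2 were -0.05, -0.02, -0.0002 and -0.0095, and those of Sv2b and Id4 were 0.05 and 0.11. The mean levels of the astrocyte, interneuron and oligodendrocyte lists were also the lowest of the WT arrays on this array, at 6.10, 7.50 and 6.86. The part of these cell types in the compartment values was not tested.

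Correlations of deviations from the group means over the 12 arrays describe which markers moved together. The arrays share their normalization, and WT replicate 6 weighs on them. Within the striosome set 6 of 10 pairs were positive, with a median Pearson r of 0.47, and all 4 negative pairs involved Lypd1 (r from -0.57 to -0.24). When WT replicate 6 was left out, the r of Lypd1 was 0.05 with Oprm1, -0.12 with Sema5b, -0.16 with Bach2 and -0.35 with Kremen1. Within the matrix set 4 of 6 pairs were positive (median 0.28), and both negative pairs involved Id4. Across the sets 12 of 20 pairs were negative (median -0.37). Without WT replicate 6 the medians were 0.12 within the striosome set, 0.28 within the matrix set and 0.09 across them.

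The closest pair was Calb1 and Rasgrp2 (r = 0.91, Spearman rho = 0.77), with r = 0.45 without WT replicate 6. Calb1 and Sv2b stood at r = 0.68 and rho = 0.78, and at r = 0.73 without that array. Oprm1 and Bach2 stood at r = 0.72 and rho = 0.62, and at 0.59 without it. Id4 was positively related to Bach2 (r = 0.65, and 0.77 without WT replicate 6), Oprm1 (0.47 and 0.54), Sema5b (0.43 and 0.58) and Kremen1 (0.39 and 0.50). Lypd1 was positively related to Rasgrp2 (0.54) and Calb1 (0.47), and these values were 0.17 and 0.02 without the array.

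**Figure D4:**
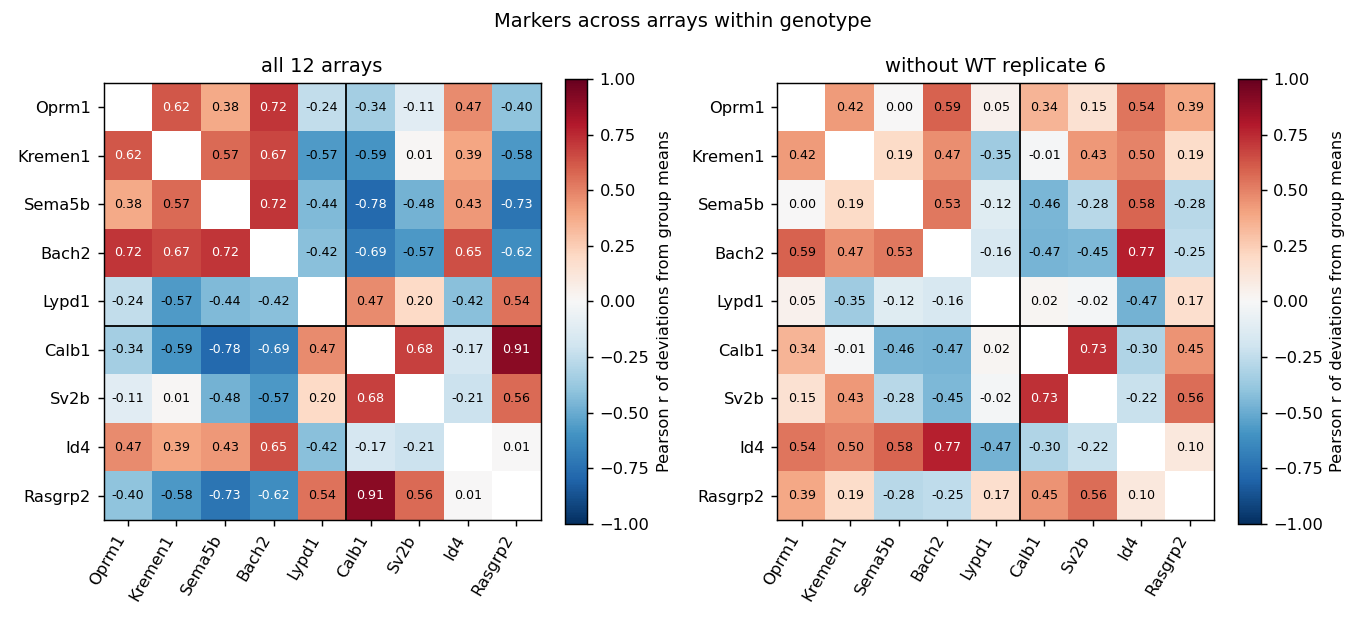
Pearson correlation between the deviations of each pair of markers from their group means over the 12 arrays, with all arrays and without WT replicate 6, on a colour scale from -1 to 1. Calb1 and Rasgrp2 have the highest value with all arrays (0.91), and it is 0.45 without WT replicate 6.

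Among all named probe sets, those whose deviations tracked a marker most closely over the 12 arrays differed from marker to marker. Lypd1 was tracked by Fam155a (r = 0.93) and by the dopamine receptor gene Drd1 (r = 0.92, and 0.90 without WT replicate 6). Calb1 was tracked by Serpini1, which encodes neuroserpin (0.95, and 0.85 without that array), and Tax1bp1 (0.94 and 0.83). Rasgrp2 was tracked by Cacng3 (0.94 and 0.88) and Uqcrc2 (0.94 and 0.62), and Sv2b by Tusc3 (0.97) and the bicarbonate transporter gene Slc4a10 (0.94). The remaining nearest genes, at r from 0.93 to 0.98, were H2-M5 and Smim6 for Oprm1, Gm17232 and Eif5a for Kremen1, Phc1 and Ncoa6 for Sema5b, Ccnk and Rad18 for Bach2, and Gm13277 and Nms for Id4. No marker appeared among the 2 nearest genes of another. The highest of many correlations over 12 arrays are high by selection.

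Mean levels of marker lists for other cell types moved with some markers over the 12 arrays, and their part in the marker values was not tested beyond the covariates given here. The astrocyte list was related to Rasgrp2 (r = 0.81, and 0.30 without WT replicate 6), Oprm1 (-0.77 and -0.67) and Bach2 (-0.74 and -0.56). The interneuron list was related to Bach2 (-0.77 and -0.65), Sema5b (-0.76 and -0.60) and Calb1 (0.70 and 0.44). The oligodendrocyte list was related to Bach2 (-0.72 and -0.54) and Rasgrp2 (0.70 and 0.21), and the microglial list to Sv2b (-0.71 and -0.79). These lists describe arrays within a genotype, and none of their genes passed between the genotypes. The mean level of 12 progenitor markers was related negatively to Sv2b (r = -0.68) and Calb1 (-0.58) and positively to Bach2 (0.65) and Sema5b (0.55). With that level as a covariate, the change was 0.34 for Calb1, 0.21 for Sv2b, 0.26 for Lypd1, -0.13 for Bach2 and -0.15 for Sema5b, and the balance was -0.21. Unadjusted limma p-values were then 0.0362, 0.0188, 0.0150, 0.0413 and 0.0882 for these 5 genes, and no adjusted p passed. For Oprm1, Kremen1, Id4 and Rasgrp2 they were 0.194, 0.1249, 0.0947 and 0.4255. With this covariate 2307 of 25428 probe sets had an unadjusted p below the threshold. All but Lypd1 of the 5 genes were named for their correlation with it. The covariate was itself higher in cKO (9.22 against 9.11 in WT). The changes and the balance with it are therefore not the plain difference between the genotypes. The cortical neuron markers were all positive in cKO (6 of 6, median 0.20, none past the threshold), with summed levels of 36.19 to 38.34 in WT and 35.96 to 40.68 in cKO. Kremen1 (r = 0.52) and Sv2b (0.43) were related to their mean level, and with it as a covariate they changed by -0.08 (unadjusted limma p = 0.0413) and 0.02. With the cortical covariate 2593 of 25428 probe sets had an unadjusted p below the threshold. That level too was higher in cKO (6.44 against 6.21 in WT). Of 15 projection neuron markers 3 fell, Foxo1 (-1.08), Ikzf1 (-0.59) and Pde10a (-0.59), and none rose, beside 0.728% of all probe sets past the threshold. The changes of these 15 were positive for 7 and negative for 8. No astrocyte, interneuron, oligodendrocyte, endothelial or microglial marker passed.

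Other genes linked to the compartments did differ between the genotypes. Of 15 such genes 4 passed, beside 0.728% of all probe sets, and in 4 the arrays of the groups did not overlap, beside 1.38%. The list was drawn up with earlier results of these arrays known, so these counts are a description. In each compartment 1 of them rose and 1 fell.

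Tshz1, a zinc finger transcription factor of a striosome neuron subset, rose. It ran from 8.47 through 8.62 to 8.84 in WT and from 8.89 through 8.98 to 9.06 in cKO, without overlap. The change was 0.36 ± 0.06 (SE), or 1.28-fold (limma adjusted p = 0.0122). The call was lost with the cortical covariate (limma adjusted p = 0.0632), the progenitor covariate (0.0910) and the replicate number as a block (0.0718). Rasgrp1, the relative of Rasgrp2 that activates Ras and is enriched in striosomes, fell. It ran from 7.15 through 7.29 to 7.47 in WT and from 6.86 through 6.92 to 7.12 in cKO, again without overlap. The change was -0.33 ± 0.06 (SE; limma adjusted p = 0.0371), and it passed in 11 of 24 alternative analyses. The call was lost when WT replicate 2, 3, 4 or 6 or cKO replicate 1, 2, 3 or 5 was left out, with changes from -0.34 to -0.30 (limma adjusted p from 0.0579 to 0.0993). With the progenitor covariate the change was -0.24 and the call was lost (limma adjusted p = 0.151). It was also lost with the cortical (0.0778) and Y-linked (0.0609) covariates, the replicate block (0.0922) and without WT replicates 3 and 6 (0.141).

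Of the remaining striosome genes, Tac1, the substance P precursor, differed by -0.55 ± 0.12 (SE; limma adjusted p = 0.0653). Ppp1r1b, which encodes DARPP-32, a phosphatase inhibitor regulated by dopamine, differed by -0.48 ± 0.11 (SE; limma adjusted p = 0.0718). Gria1, an AMPA receptor subunit gene, differed by 0.27 ± 0.06 (SE; limma adjusted p = 0.0589), and its groups did not overlap. None of these 3 passed on all arrays, and their signs were mixed. Of the 24 alternatives Tac1 passed in 4, Ppp1r1b in 3 and Gria1 in 6. All 3 passed without WT replicate 1, with limma adjusted p-values of 0.0369, 0.0200 and 0.0293, and Gria1 also passed without WT replicate 6 (0.0348). Nr4a1, a nuclear receptor, Foxp2 and Khdrbs3 differed by -0.22, 0.11 and 0.05. The median over these 9 striosome genes was -0.08.

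Of the other matrix genes, Epha7, a receptor for ephrins, fell and Zfp521, a zinc finger factor, rose. Epha7 ran from 9.39 through 9.60 to 9.67 in WT and from 8.93 through 9.001 to 9.07 in cKO, and the groups were separate. Its change was -0.56 ± 0.04 (SE), or 1.47-fold lower (limma adjusted p = 0.000170). Zfp521 ran from 9.06 through 9.13 to 9.54 in WT and from 9.50 through 9.86 to 9.92 in cKO, so that the groups overlapped narrowly. Its change was 0.58 ± 0.09 (SE) (limma adjusted p = 0.0153). The call was lost with the progenitor covariate (limma adjusted p = 0.0749), without WT replicates 3 and 6 (0.0904) and with the replicate block (0.120). Ebf1, a transcription factor of striatal differentiation, differed by -0.22, the guanine deaminase gene Gda by 0.20, Ache, which encodes acetylcholinesterase, by -0.10 and Epha4 by -0.03, and these 4 did not pass. The median over the 6 matrix genes was -0.07.

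**Figure D5:**
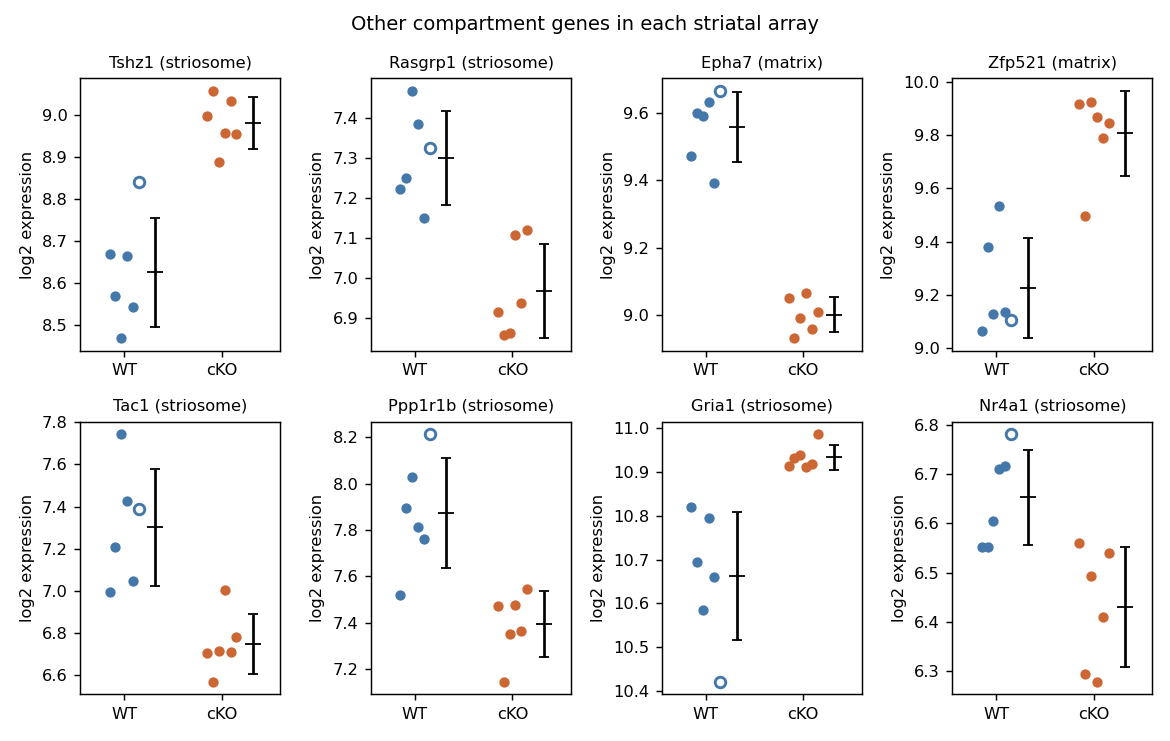
RMA log2 expression on each array of Tshz1, Rasgrp1, Epha7, Zfp521, Tac1, Ppp1r1b, Gria1 and Nr4a1, by genotype (n = 6 each), with group means and SDs. The open circle is WT replicate 6. These genes had the smallest p among the 15 other compartment genes, and the rest are not drawn. Tshz1, Rasgrp1, Gria1 and Epha7 show no overlap between the genotypes, and Zfp521 overlaps between 9.50 and 9.54.

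The marker intervals set the limits of the comparison, since the number of arrays limits the precision. The intervals of Oprm1, Sema5b and Bach2 ended at -0.23 or nearer to 0 on the lower side, so falls in array value of the size of Rasgrp1 (-0.33) lay outside them. That of Kremen1 ended at -0.12. Its values sit near the median of all values, where RMA compresses differences, so its interval does not bound a fall in its RNA. For Calb1 the interval reached from -0.14 to 0.47 and left a wider range possible. No p that missed the threshold shows that a marker had the same level in both genotypes.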

How the data were processed

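Expression was measured on 12 arrays, 6 WT and 6 cKO. The authors deposited log2 values made with RMA (no version), per the submitters' processing notes. Not given in the sources used here are the array model and probe definitions. The arrays share 1 distribution, with sorted values differing by at most 0.00187, so a change common to all genes would not be visible. Of 25428 probe sets, 24674 had 1 gene symbol, none had several and 754 stayed unnamed. The genotypes were tested two-sided by lmFit and eBayes of limma 3.58.1 (R 4.3.3) with genotype as the single term, on the whole deposited table. The code was tested on simulated data.

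The 9 markers and the gene lists were chosen with earlier results of these data known. All 9 markers are named. From other lists, the rule takes at most 4 genes past the threshold, or where there were none, the 2 of lowest p. Partner genes of each marker may be named by value, and the 2 genes most correlated with each marker are named. Emx1, Slc17a7, Nr4a1, Foxp2, Khdrbs3, Gria1, Tac1, Ppp1r1b, Ebf1, Gda, Ache and Epha4 were named outside this rule, after their values were seen.

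The 24 alternatives were other normalizations (quantile, median centring, cyclic loess), leaving out dim or unnamed probe sets, array weights, a trended and robust prior, a replicate block, covariates (Y-linked, cortical or progenitor gene levels), leaving out each array, and leaving out WT replicates 3 and 6. The Y-linked covariate used 3 of 4 listed genes.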

Additional observations from a re-analysis of the deposited data

Results flagged for a closer look

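Each marker and the array balance were examined in each genotype for a highest or lowest array whose gap to its neighbour, divided by the range of the group, was above 0.625. Of 20 groups examined 3 had such an array, where chance gives about 1 in 20. Calb1 stood at 8.0332 on WT replicate 6, a gap of 0.645 of the range. Rasgrp2 stood at 6.2373 on the same array, with a gap of 0.784 of the range. Id4 stood at 9.6562 on WT replicate 3, the lowest WT array, with a gap of 0.67 of the range. Without WT replicate 6, the change was 0.03 for Calb1 and -0.09 for Rasgrp2.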

How the results depend on the processing

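No marker passed the threshold under any of the 24 alternatives. The count of all probe sets past it, 185, was 278 without dim probe sets, 99 with the cortical covariate, 73 with the progenitor covariate and 106 to 227 leaving out 1 array (fewest without cKO replicate 2, most without WT replicate 1). The count of other compartment genes, 4, was 7 without dim probe sets, 7 with the trended robust prior, 2 with the cortical and 1 with the progenitor covariate, and 3 to 7 leaving out 1 array. The counts of other compartment genes were added after the data were seen.

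Replicate numbers did not pair the samples: same-numbered arrays had deviations correlated at -0.221 to 0.155, and 0 of 6 correlated best with their own number. With the replicate block 64 probe sets, 1 other compartment gene and 0 markers passed.

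The change of Rasgrp2, 0.0021, was -0.0203 with array weights, -0.089 without WT replicates 3 and 6, and -0.0917 to 0.0314 leaving out 1 array. With the cortical covariate Khdrbs3 was at -0.0084 and Epha4 at 0.0223. The cause of these shifts was not tested. Zfp521 and Tshz1 each kept their call in 21 of the 24 alternatives and Epha7 in 24. Array number and the spread of Calb1, Rasgrp2 and Sv2b limit what could be detected.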
